A study of Arabidopsis thaliana with 25 samples.

Results

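AT5G10040, AT4G24110, AT3G27220 and AT3G23170 are 4 Arabidopsis genes of little known function whose transcripts accumulate when oxygen is short. They were chosen by measured values of these arrays, namely a strong rise in hypoxia and a low level in normoxia, so their hypoxia rise and the height of their normoxic level are given below as descriptions, with no test. Differences between organs and between lines were tested. These too rest on values that the choice used, since the rise is made of the normoxic and the hypoxic levels. The choice used no numerical threshold. Each gene was read by 1 probe set of its own, which makes 4 probe sets among the 22746 that were tested. RNA came from roots and shoots of Col-0 seedlings aged 10 days and was hybridised to 25 Affymetrix ATH1 arrays. The seedlings were wild type (WT), mpk6, which carries a T-DNA insertion that knocks out the MAP kinase gene MPK6, or MPK6ox, which carries a T-DNA with MPK6 behind the constitutive 35S promoter. All were raised on medium with 1% sucrose under 16 h of light and 8 h of darkness. In hypoxia they stood in a closed chamber filled with 99.998% argon, and in normoxia in an open box, and root was cut from shoot afterwards. The protocol states 2 h for either treatment while the source names of the hypoxic samples state 9 h, so the duration is uncertain. MPK6ox root hypoxia had 3 arrays and every other combination of line, organ and treatment had 2. The labels do not say how many seedlings or transgenic lines stood behind an array, and the p-values measure only the spread between these samples.

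In Arabidopsis, low oxygen stabilises transcription factors of the group VII ERF family, among them RAP2.12, which are otherwise marked for degradation by oxygen-dependent oxidation of their amino terminus. These factors switch on a core set of genes that includes enzymes of ethanol fermentation, sucrose breakdown and signalling proteins, together with a number of genes known mainly for this induction and named hypoxia-responsive unknown proteins. AT3G27220 belongs to the family of Kelch-repeat proteins, whose repeats fold into a propeller that often binds other proteins. No function is stated here for the products of AT5G10040, AT4G24110 and AT3G23170.

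Values are log2 expression values, so a difference of 1 is a 2-fold change. Array medians lay between 6.87 and 7.07, and arrays of 1 group correlated at 0.982 to 0.992 across probe sets. Markers of root tissue (5 of 10 measured) and of shoot tissue (5 of 18 measured, all nuclear photosynthesis genes) were read to check the organ labels. A list gene is called measured if the array annotation used here gave a probe set to that gene alone. The others may still have a probe set that is shared or unnamed here. The summed linear signal of the shoot markers was 45073 to 53981 in the 12 shoot arrays and 486 to 8067 in the 13 root arrays. That of the root markers was 20314 to 33695 in roots and 16230 to 22002 in shoots. These 2 ranges overlap, so the root marker sum alone does not tell the organs apart. EXPA7, a root-hair expansin, averaged 9.20 in roots and 5.34 in shoots of WT in normoxia. Of the 5 root markers 4 were called higher in normoxic roots than shoots, and AT5G44020 was called lower, with WT means of 11.61 in roots and 12.46 in shoots. The transcript of MPK6 was not analysed here, so it gives no check of the line labels.

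AT5G10040 had the largest rise of the 4 genes. In WT roots it measured 5.02 and 4.92 in normoxia and 13.44 and 13.05 in hypoxia. In WT shoots it measured 4.67 and 5.10 in normoxia and 11.41 and 11.77 in hypoxia. Over all 3 genotypes the 6 normoxic root arrays ran from 4.89 through a median of 5.03 to 5.30, and the 7 hypoxic root arrays from 12.95 through 13.44 to 13.71. The 6 normoxic shoot arrays ran from 4.67 through 5.01 to 5.13, and the 6 hypoxic ones from 11.41 through 11.82 to 12.22. Normoxic and hypoxic arrays were far apart in either organ, normoxic roots and shoots overlapped, and every hypoxic root array lay above every hypoxic shoot array. The rise was 310-fold in WT roots, 316-fold in mpk6 roots and 340-fold in MPK6ox roots, and 105-fold, 119-fold and 130-fold in the shoots of the same lines. It was the largest of all tested probe sets in WT and MPK6ox roots, the second largest in mpk6 roots and the third largest in the shoots of each line. In the reference annotation (TAIR10.1) the gene overlaps its neighbour TGA4, a bZIP transcription factor gene that was not analysed here, and whether TGA4 transcript adds to the signal was not tested.

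AT4G24110 did not start from a low level. In normoxia its mean value stood between percentiles 45 and 52.1 of all probe sets, depending on the group, against 16.9 to 25.6 for AT5G10040, 24.9 to 32.9 for AT3G23170 and 36 to 44.1 for AT3G27220. Probe sets differ in how strongly they bind, so such a rank is only a rough guide to abundance, and of AT4G24110 the description "low in normoxia" means a middle value on these arrays. In WT roots it measured 6.98 and 7.12 in normoxia and 12.89 and 12.45 in hypoxia. In WT shoots it measured 6.97 and 7.26 in normoxia and 11.56 and 11.57 in hypoxia. The normoxic root arrays ran from 6.47 through 6.72 to 7.12 and the hypoxic ones from 12.35 through 12.50 to 13.21. The normoxic shoot arrays ran from 6.97 through 7.08 to 7.26 and the hypoxic ones from 11.27 through 11.60 to 12.04. Here too the lowest hypoxic root array was above the highest hypoxic shoot array. The rise was 49.1-fold in WT, 70.6-fold in mpk6 and 65.2-fold in MPK6ox roots. In shoots it was 21.8-fold, 20.7-fold and 26.7-fold in the same order of lines.

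AT3G27220, the Kelch-repeat gene, measured 6.43 and 6.67 in normoxic and 12.30 and 11.69 in hypoxic WT roots. In WT shoots it measured 6.34 and 5.98 in normoxia and 11.27 and 11.12 in hypoxia. Its normoxic root arrays ran from 5.78 through 6.40 to 6.67 and its hypoxic ones from 11.54 through 12.03 to 12.47. The normoxic shoot arrays ran from 5.98 through 6.20 to 6.34 and the hypoxic ones from 10.94 through 11.19 to 11.41. Hypoxic roots and shoots did not overlap, with a narrow gap between the lowest root array and the highest shoot array. The rise in roots was 43.5-fold in WT, 73-fold in mpk6 and 49.1-fold in MPK6ox. In shoots it was 32.7-fold, 32.7-fold and 32.3-fold, almost the same in every line.

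AT3G23170 was the 1 gene whose hypoxic arrays did not separate by organ. It measured 4.98 and 5.75 in normoxic WT roots and 11.35 and 10.62 in hypoxic ones. In WT shoots it measured 5.63 and 5.47 in normoxia and 10.99 and 10.38 in hypoxia. Its normoxic root arrays ran from 4.98 through 5.33 to 6.06 and its hypoxic ones from 10.52 through 10.62 to 11.35. The normoxic shoot arrays ran from 5.21 through 5.32 to 5.63 and the hypoxic ones from 10.35 through 10.43 to 10.99. Root and shoot arrays overlapped in either treatment. The rise was 49.2-fold, 40.3-fold and 36.4-fold in WT, mpk6 and MPK6ox roots and 35.3-fold, 32.8-fold and 40.1-fold in their shoots.

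**Figure D1:**
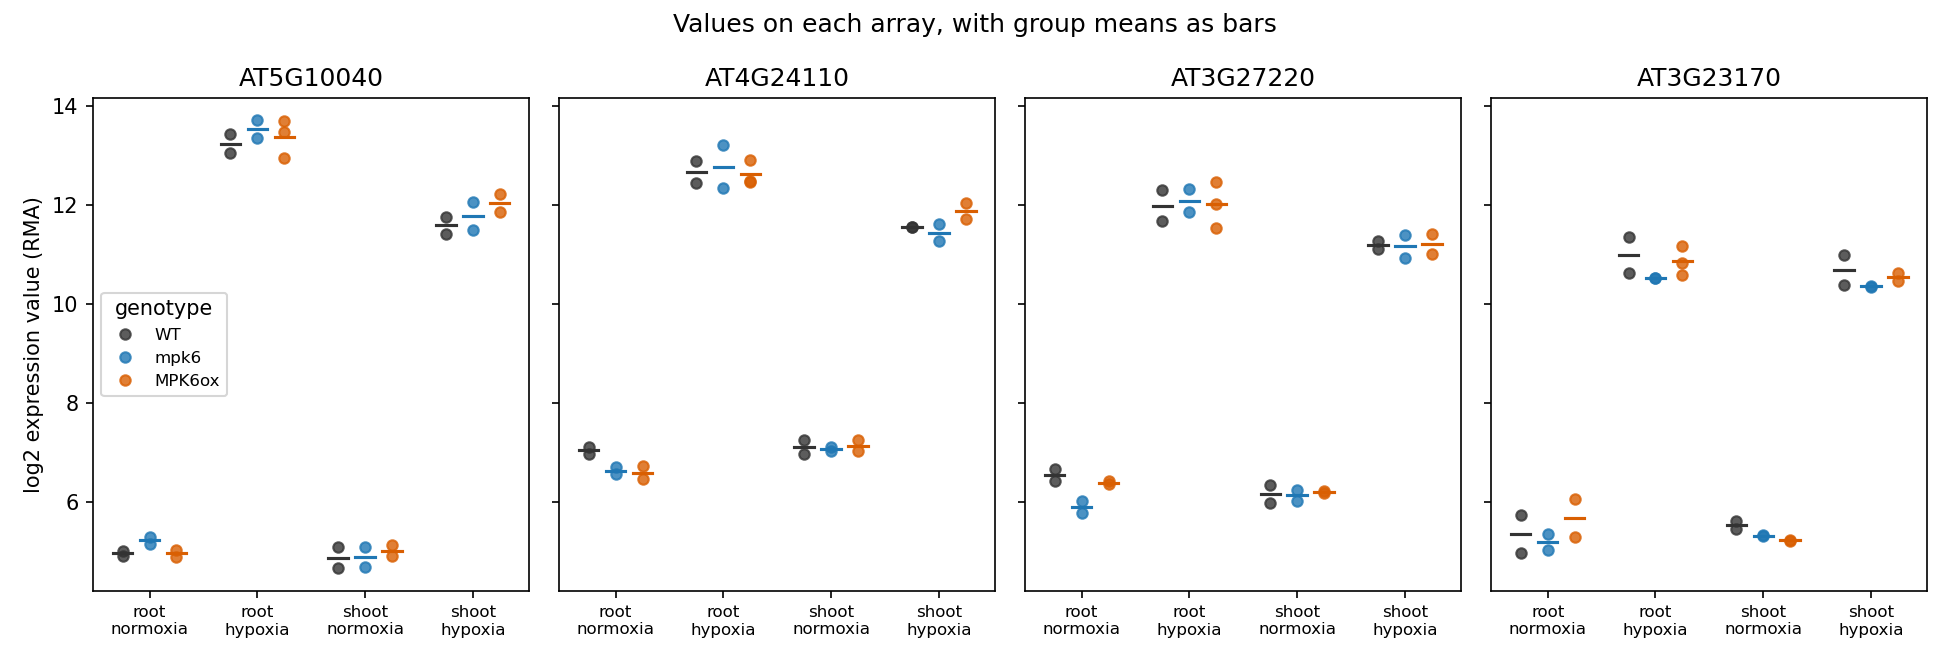
Log2 expression value (vertical axis) of AT5G10040, AT4G24110, AT3G27220 and AT3G23170 on each of the 25 arrays, by organ and treatment, with points coloured by genotype and a bar at each group mean. For AT5G10040 the normoxic arrays lie between 4.67 and 5.30 and the hypoxic ones between 11.41 and 13.71, and for AT3G23170 the hypoxic roots and shoots overlap.

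In each organ all 4 genes had every hypoxic array above every normoxic one, as had 3.69% of all probe sets in roots and 2.41% in shoots. By limma the share of probe sets that rose with hypoxia was 2.55% in WT, 3.71% in mpk6 and 4.28% in MPK6ox roots, and 0.941%, 0.761% and 0.958% in the shoots. Since the genes were chosen for this rise, these shares are background and nothing is read from the count. For AT5G10040, AT4G24110 and AT3G27220 the 3 hypoxic root groups came first, the 3 hypoxic shoot groups next and the 6 normoxic groups last. The steps between these blocks were 1.20 and 6.36 for AT5G10040, 0.75 and 4.30 for AT4G24110, and 0.78 and 4.62 for AT3G27220. Within the hypoxic root block neighbouring groups differed by at most 0.16, which is less than the SD of 0.26 to 0.61 of these genes' mpk6 root arrays. Within the shoot block the steps were at most 0.31. For AT3G23170 the hypoxic groups of the organs were intermixed, from 10.99 ± 0.52 (SD, n = 2) in WT roots to 10.36 ± 0.01 (n = 2) in mpk6 shoots, and WT shoots stood above mpk6 roots.

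The difference between the organs was tested. It was not itself part of the choice, but it is made of the hypoxia rises that the choice used. Averaged over the genotypes, the hypoxia rise was called larger in roots than in shoots for 3 of the 4 genes. Of all probe sets 3.23% were called in that direction, and how many of these rose with hypoxia was not counted. Of the 21 other low-oxygen genes described below, 11 were called in that direction, so nothing is read from the count of 3. AT5G10040 rose by 8.33 in roots and by 6.87 in shoots, a difference of 1.46 ± 0.20 (SE, limma adjusted p = 0.000221), or 2.74-fold. AT4G24110 rose by 5.93 and 4.52, a difference of 1.41 ± 0.19 (adjusted p = 0.000166), or 2.66-fold. For AT3G27220 the rises were 5.75 and 5.02 and the difference 0.73 ± 0.21, or 1.65-fold, which passed narrowly (adjusted p = 0.0492). The call of AT3G27220 was lost when any 1 of 18 of the 25 arrays was left out, with adjusted p up to 0.111. It was kept without replicate 1 or 2 of MPK6ox root hypoxia, replicate 1 of MPK6ox or mpk6 shoot hypoxia, replicate 2 of WT or mpk6 root hypoxia, or replicate 2 of WT shoot normoxia. With arrays centred on their medians its adjusted p was 0.051. AT3G23170 rose by 5.38 and 5.17, and its difference of 0.21 ± 0.23 did not pass (adjusted p = 0.689, 95% interval -0.28 to 0.70). A larger rise in roots by up to 0.70, or a smaller one by up to 0.28, is within that interval. Leaving out replicate 1 or replicate 2 of WT root normoxia moved the difference to 0.084 or 0.34. Whether AT3G23170 differs from the other 3 genes in this respect was not tested.

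The organ difference was also read line by line, with no test between the lines. The difference, root minus shoot, was 1.57 in WT, 1.41 in mpk6 and 1.39 in MPK6ox for AT5G10040. It was 1.17, 1.77 and 1.29 for AT4G24110 and 0.41, 1.16 and 0.60 for AT3G27220. For AT3G23170 it was 0.48, 0.30 and -0.14, with the sign turned in MPK6ox. The WT value of each gene moved when 1 array was left out. For AT5G10040 it was 1.78 or 1.35 without replicate 1 or 2 of WT shoot normoxia. Without replicate 1 or 2 of WT root hypoxia it was 0.95 or 1.39 for AT4G24110 and 0.11 or 0.72 for AT3G27220. For AT3G23170 it was 0.096 or 0.86 without replicate 1 or 2 of WT root normoxia. In WT alone 0 of the 4 genes passed by limma, with 0.356% of all probe sets called in that direction. AT5G10040 had an adjusted p of 0.0598 and AT4G24110 of 0.188, and both had an unadjusted p under 0.05 (0.000429 and 0.003). With root and shoot arrays of the same line, treatment and number treated as a pair, the WT differences of AT5G10040 (adjusted p = 0.0295) and AT4G24110 (adjusted p = 0.045) passed. That fit leaves out MPK6ox root hypoxia replicate 3, which has no partner. In it the differences averaged over genotypes passed for AT5G10040, AT4G24110 and AT3G27220 (limma adjusted p = 0.000486, 0.000166 and 0.0101). That of AT3G23170 did not (0.537). In the unpaired fit AT5G10040 also passed in WT when replicate 1 or 2 of mpk6 shoot hypoxia or of MPK6ox root hypoxia was left out (adjusted p between 0.0269 and 0.0495), with quantile normalization (0.0221) and with the 5687 dimmest probe sets left out (0.0487).

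**Figure D2:**
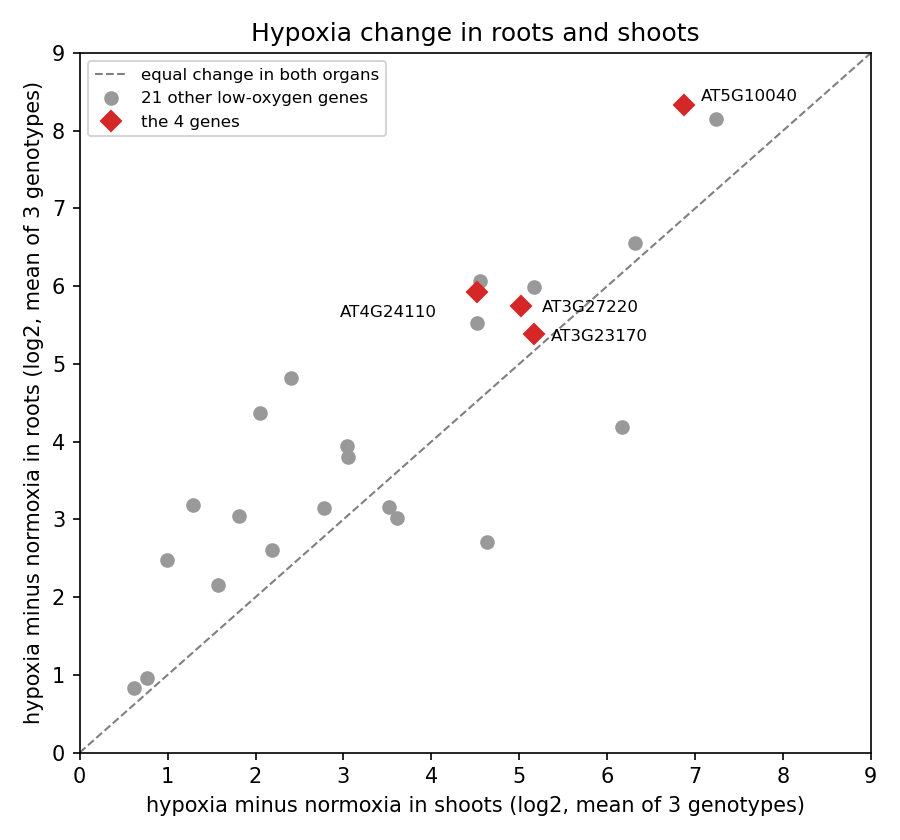
Log2 change from normoxia to hypoxia in shoots (horizontal axis) and roots (vertical axis), each the mean of 3 genotypes, for the 4 genes (diamonds) and 21 other low-oxygen genes (circles), with a dashed line of equal change. AT5G10040 (6.87 in shoots, 8.33 in roots), AT4G24110 (4.52, 5.93) and AT3G27220 (5.02, 5.75) lie above the line and AT3G23170 (5.17, 5.38) close to it.

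Levels in each treatment were also compared between organs. In hypoxia, averaged over genotypes, AT5G10040 was 2.98-fold higher in roots than in shoots (1.58 ± 0.14, SE, limma adjusted p = 3.465e-08), AT4G24110 2.09-fold (1.06 ± 0.13, adjusted p = 2.42e-06) and AT3G27220 1.79-fold (0.84 ± 0.15, adjusted p = 0.000119). AT3G23170 did not pass (0.26 ± 0.16, adjusted p = 0.1975). Organ differences were common on these arrays, with 29.2% of all probe sets called higher in hypoxic roots, and the non-overlap of hypoxic roots and shoots that 3 of the 4 genes showed was found in 18.5% of probe sets. In normoxia 1 of the 4 genes differed between organs, against 56.9% of all probe sets, and nothing is read from that count because the choice used the normoxic level. That gene was AT4G24110, 1.27-fold lower in roots (-0.35 ± 0.14, adjusted p = 0.0393). Its call was lost without any 1 of 7 arrays, namely replicate 1 of WT roots, replicate 2 of WT shoots, mpk6 roots, MPK6ox roots or MPK6ox shoots, and either replicate of mpk6 shoots, with adjusted p between 0.0541 and 0.105. With root and shoot arrays paired, the normoxic difference of AT4G24110 had a limma adjusted p of 0.00771. The normoxic organ differences of AT5G10040 (0.12), AT3G27220 (0.11) and AT3G23170 (0.05) had 95% intervals within -0.31 and 0.44. Whether these normoxic values stood above background was not assessed, so an organ difference there could have been missed. In whole organs, more expressing cells and more transcript per cell cannot be told apart.

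**Figure D3:**
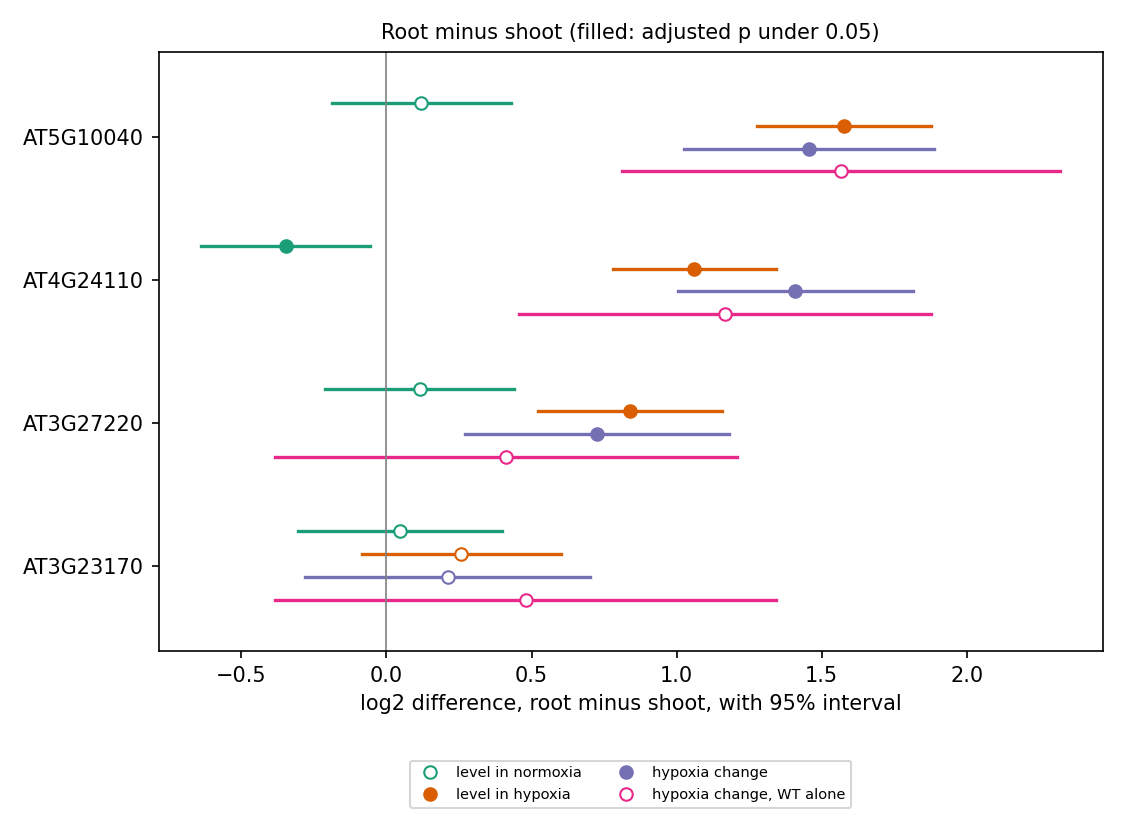
Root minus shoot difference (log2, horizontal axis) of AT5G10040, AT4G24110, AT3G27220 and AT3G23170 for the level in normoxia, the level in hypoxia and the hypoxia change, averaged over 3 genotypes, and for the hypoxia change in WT alone, with 95% intervals. Filled points passed an adjusted p of 0.05, and the hypoxic levels of the first 3 genes (1.58, 1.06 and 0.84) stand clear of 0.

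The 5 shoot markers averaged higher in hypoxic than in normoxic roots of each line. Their median change was 1.86 in WT, 0.80 in mpk6 and 2.81 in MPK6ox roots. In roots, the line difference from WT of the marker change was called for 0 of 5. The same held for all 22746 probe sets. The markers of this list called higher were 4 of 5 in WT, 0 of 5 in mpk6 and 5 of 5 in MPK6ox roots, and their summed linear signal was 919 to 1047 in normoxic and 2929 to 5478 in hypoxic WT roots. It was 1060 to 2259 and 1967 to 3627 in mpk6 roots and 486 to 689 and 2456 to 8067 in MPK6ox roots. Of the 5 root markers 2 fell with hypoxia in the roots of each line, and EXPA7 averaged 7.34 in hypoxic WT roots. Among the 7 hypoxic root arrays, those with a lower marker signal tended to read higher for the genes studied here. AT5G10040 measured 13.71, 13.70 and 13.44 on the arrays with marker sums of 1967 (mpk6 replicate 1), 2456 (MPK6ox replicate 1) and 2929 (WT replicate 1). It measured 13.35 and 13.48 at sums of 3627 (mpk6 replicate 2) and 3876 (MPK6ox replicate 3), and 13.05 and 12.95 at sums of 5478 (WT replicate 2) and 8067 (MPK6ox replicate 2). AT3G27220 measured 12.32, 12.47, 12.30, 11.86, 12.03, 11.69 and 11.54 on the same arrays in the same order, so its lowest values too were on the arrays richest in shoot markers. AT4G24110 measured 12.89 or more on the first 3 of these arrays and 12.50 or less on the other 4. AT3G23170 followed this order within WT (11.35 and 10.62 at rising marker sums) and within MPK6ox (11.17, 10.84 and 10.59), while both mpk6 arrays read 10.52. In each line the array numbered 1 had the lowest marker sum, so number and marker signal cannot be told apart here. The part of shoot RNA in the organ comparison was not tested. Without the array richest in shoot markers the organ differences of the hypoxia change were 1.53 for AT5G10040 (adjusted p = 6.27e-05), 1.44 for AT4G24110 (0.000215) and 0.80 for AT3G27220 (0.0144).

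**Figure D4:**
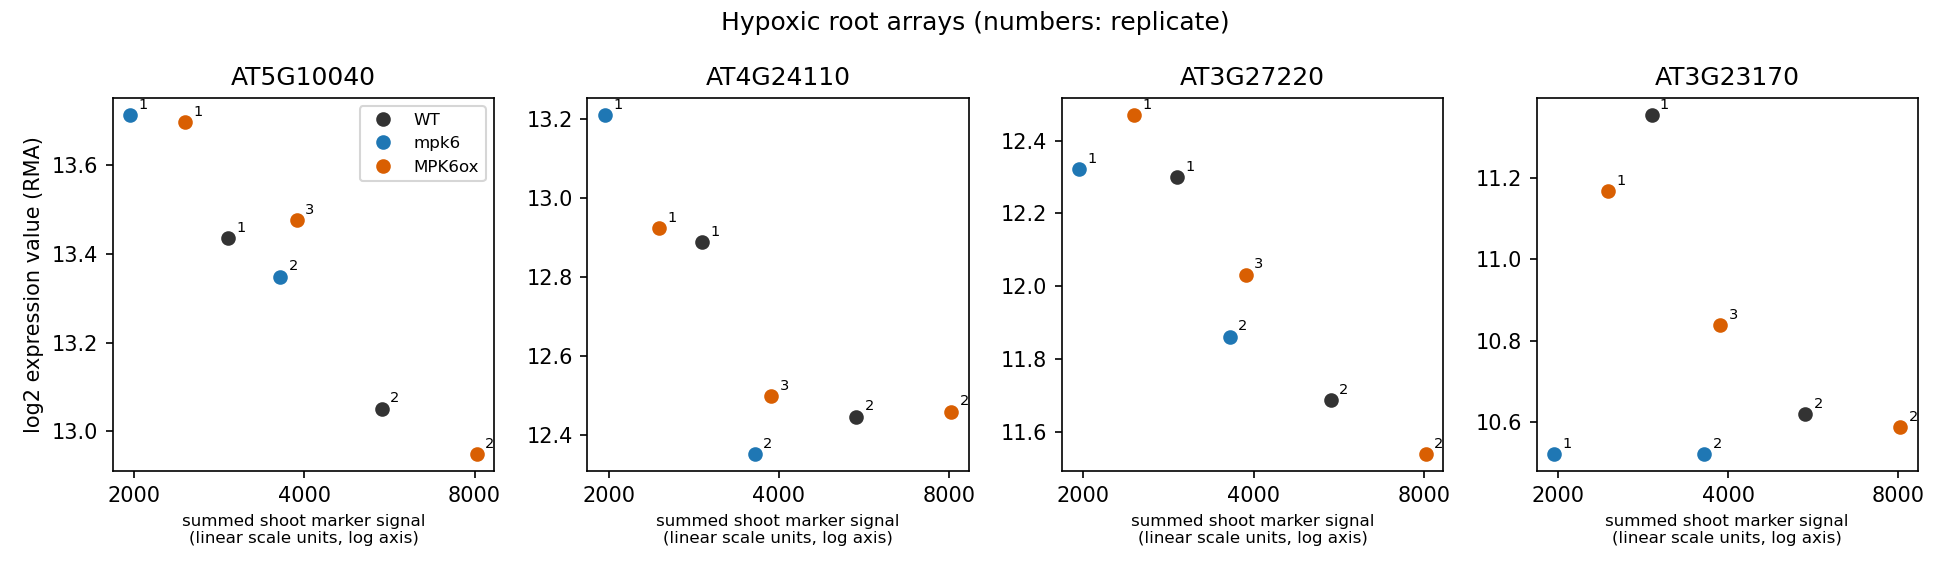
Log2 expression value of AT5G10040, AT4G24110, AT3G27220 and AT3G23170 (vertical axes, each with its own range) on the 7 hypoxic root arrays against the summed linear signal of 5 shoot markers (horizontal axis, log scale), coloured by genotype and marked with the replicate number. AT5G10040 falls from 13.71 at a marker sum of 1967 to 12.95 at 8067, and AT3G23170 falls within WT and within MPK6ox but reads 10.52 on both mpk6 arrays.

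The study asked what MPK6, a MAP kinase, does in hypoxia. None of the 4 genes passed the test in any comparison of mpk6 or MPK6ox with WT. The difference of the hypoxia change between a line and WT was called for 0 of the 4 genes in each of 4 comparisons by limma, where 0 of all 22746 probe sets (0%) were called. At an unadjusted p under 0.05 these comparisons held 853 probe sets for mpk6 roots, 409 for mpk6 shoots, 515 for MPK6ox roots and 244 for MPK6ox shoots, and 0 of the 4 genes in each. The largest difference was that of AT3G27220 in mpk6 roots, where it rose by 6.19 against 5.44 in WT (0.75 ± 0.38, SE, adjusted p = 0.997). Its 95% interval ran from -0.05 to 1.54, so these arrays leave room for a larger rise in mpk6. Most of the 0.75 came from the normoxic arrays. The mpk6 level differed from WT by -0.65 in normoxic roots, given again below, and by 0.10 in hypoxic roots. The difference of 0.75 became 1.05 or 0.44 without replicate 1 or 2 of WT root hypoxia. At the other end AT3G23170 rose by 5.18 in MPK6ox roots against 5.62 in WT (-0.44 ± 0.39, adjusted p = 0.999, interval -1.26 to 0.39), a difference of -0.054 or -0.82 without replicate 1 or 2 of WT root normoxia.

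Levels within an organ and treatment did not differ from WT past the threshold for any of the 4 genes in either line. The background for mpk6 was 0.0703% of probe sets in normoxic roots, 0.0484% in hypoxic roots, 0.00879% in normoxic shoots and 0.0044% in hypoxic shoots. For MPK6ox it was 0.33%, 0.387%, 0.888% and 0.492% in the same order. The lowest of these differences was AT3G27220 in normoxic mpk6 roots, with arrays at 5.78 and 6.02 against 6.43 and 6.67 in WT. The difference of -0.65 ± 0.27 did not pass (limma adjusted p = 0.857). It was the 1 value among the 56 line comparisons of these genes with an unadjusted p under 0.05. In normoxic mpk6 roots 1111 probe sets had such a p. The highest was AT5G10040 in hypoxic MPK6ox shoots, at 12.22 and 11.86 against 11.41 and 11.77 in WT (0.45 ± 0.25, adjusted p = 0.9998), and it was 0.27 without replicate 1 of WT shoot hypoxia. Averaged over organs and treatments, 0 of the 4 genes passed in either line, where 0.369% of probe sets were called for mpk6 and 2.29% for MPK6ox. For mpk6 these mean differences were 0.19 for AT5G10040, -0.12 for AT4G24110, -0.15 for AT3G27220 and -0.30 for AT3G23170. For MPK6ox they were 0.18, -0.04, -0.02 and -0.06. The 8 intervals ran from -0.60 at the lowest to 0.45 at the highest, so a mean difference of 1, or 2-fold, lay outside each of them.

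**Figure D5:**
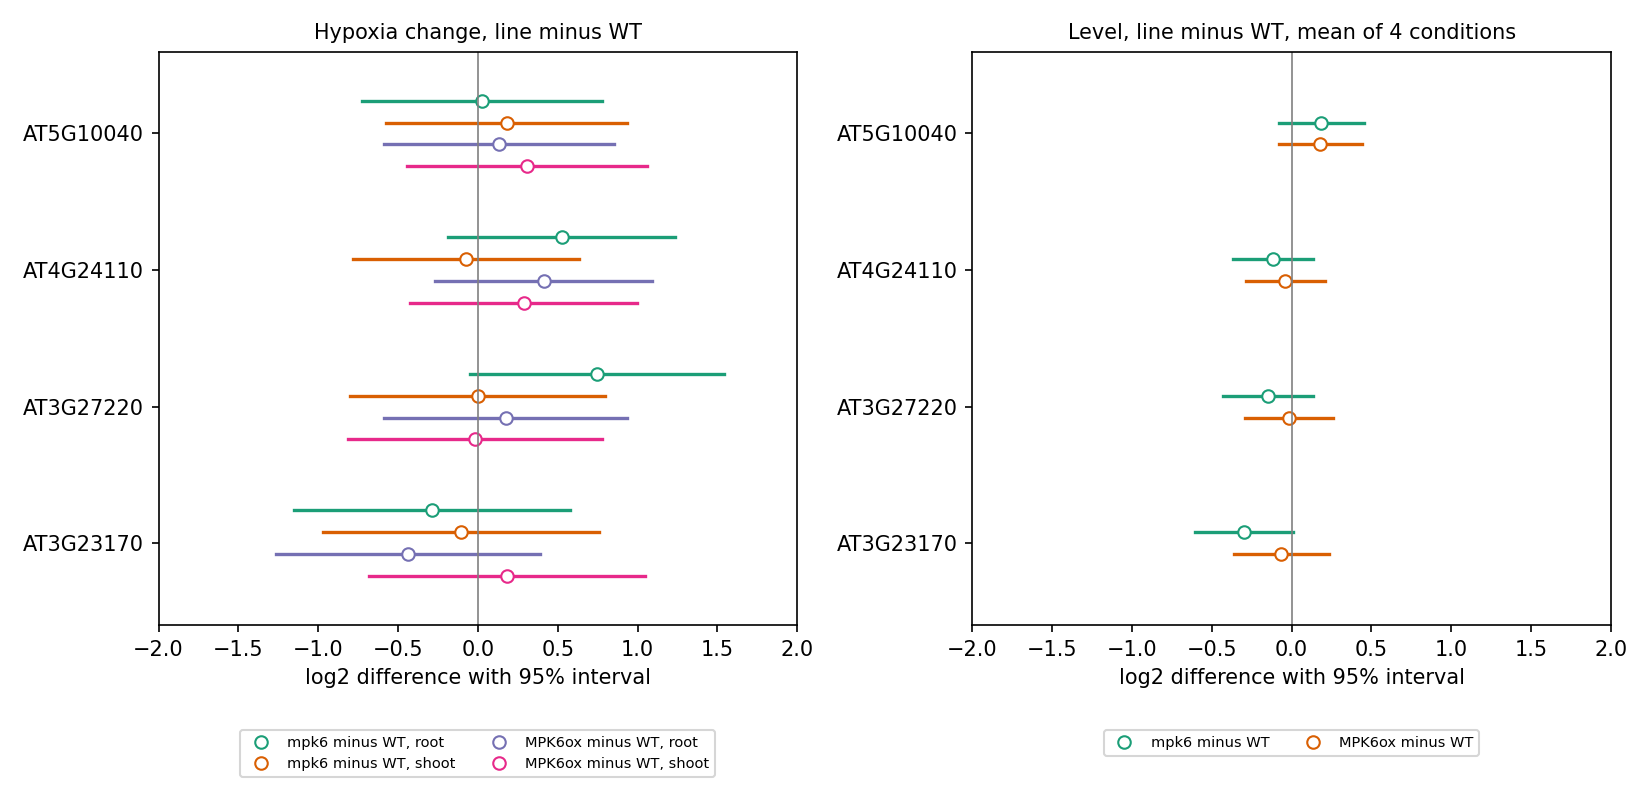
Log2 difference between mpk6 or MPK6ox and WT (horizontal axes, with 95% intervals) for AT5G10040, AT4G24110, AT3G27220 and AT3G23170. The left panel shows the hypoxia change in each organ, where estimates run from -0.44 to 0.75, and the right panel the level averaged over 4 conditions, where they run from -0.30 to 0.19, and no point passed an adjusted p of 0.05.

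Most other measured genes of the low-oxygen response rose as well. Of a list of 44 such genes, chosen with earlier results of these data known, 21 were measured. The others had no probe set annotated to that gene alone, which does not show that the array lacks them. By limma 19 of the 21 rose in WT roots, 18 in WT shoots and 19 to 20 in the other lines and organs. Over all probe sets the share that rose was 0.761% to 4.28%, depending on line and organ. Because of how the list was chosen, nothing is read from these counts. The median change in WT roots was 3.30 for the list against -0.01 over all probe sets. The organ difference of the hypoxia change, averaged over genotypes, was called higher in roots for 11 of the 21 and lower for 2. It was called higher in roots for 3.23% of all probe sets. Its median was 0.76 for the list against 0.01 over all probe sets. AT5G44730 (2.41), AT3G29970 (2.32) and AT4G17260, a lactate dehydrogenase gene (1.90), had the largest excess in roots, and AT5G66985 (-1.99) and AT4G39675 (-1.93) rose less in roots. The values of AT5G10040, AT4G24110 and AT3G27220 thus fell inside the range of that list. In hypoxic roots 17 of the 21 were called higher than in hypoxic shoots and 1 lower, where 29.2% of all probe sets were called higher. The difference of the hypoxia change between a line and WT was called for 0 of the 21 by limma in each of the 4 comparisons, with 0 to 3 at an unadjusted p under 0.05. The level differed from WT in 1, AT3G29970. It was 3.58-fold higher in hypoxic MPK6ox roots (1.84 ± 0.26, adjusted p = 0.00256) and 1.64-fold higher in MPK6ox on average (0.71 ± 0.14, adjusted p = 0.00791). Its difference from WT was 1.28 in hypoxic MPK6ox shoots, -0.26 in normoxic roots and -0.006 in normoxic shoots, none of them called.

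The genes most like these in profile stood in the low-oxygen list. Among 13509 probe sets with 1 gene, Pearson correlation over the 25 arrays with the mean of the 4 genes was highest for AT3G10040 (0.996), which encodes the trihelix transcription factor HRA1. AT4G33560 (0.995), the calmodulin-like calcium sensor gene CML38 (0.993), AT4G10270 of a wound-responsive protein family (0.993) and AT2G17850 of a rhodanese-like family (0.991) followed. The median over all these probe sets was 0.02. All 5 stood in the low-oxygen list, but that list was chosen with earlier results of these data known, so nothing is read from this. The gene most like AT5G10040 alone was AT2G17850 (0.994), that of AT4G24110 was AT4G33560 (0.994), that of AT3G27220 was AT3G10040 (0.996) and that of AT3G23170 was AT4G10270 (0.992). The arrays fall into a normoxic and a hypoxic cluster, which alone gives a high correlation to any gene with a large rise, so these values are a description without a test. AT3G10040, for example, ran from 5.91 through 6.34 to 6.66 in normoxic roots and from 12.63 through 12.82 to 13.08 in hypoxic ones. In shoots it ran from 5.70 through 5.80 to 6.42 in normoxia and from 11.81 through 12.28 to 12.63 in hypoxia. Its lowest hypoxic root array and its highest hypoxic shoot array thus read almost alike.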

How the data were processed

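The deposited values are on a log2 scale. RMA is the method that the submitters' processing notes name for them, with no version, and whether the 25 arrays were normalized together is not given in the sources used here. RNA was labelled with biotin by a 2-cycle protocol, per the labels' protocols. RMA fits each probe set across arrays and pulls arrays to a common distribution, which hides a change shared by most genes. The values were used as deposited. Signal over background was not assessed, and the number of arrays limits the precision.

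Of 22810 probe sets, 64 controls were left out and 22746 tested. GEO's annotation of the array gave 13513 of these 1 gene each and 503 several, and the others are unnamed here. A linear model with 12 group means was fitted with limma 3.58.1 (R 4.3.3), whose moderated test had 13 residual degrees of freedom and a prior worth 3.41, with Benjamini-Hochberg adjustment over all tested probe sets within a comparison, called at an adjusted p under 0.05. The genes were tested in 18 comparisons and described in 6. The 95% intervals use the moderated standard error. The fit was first tested on simulated data. Figures used Python 3.11.15 and matplotlib 3.10.9.

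The 4 genes, the low-oxygen list and the marker lists were chosen with earlier results of these data known, as was the rule for further named genes: the 5 probe sets most correlated with the mean of the 4, the most correlated for each, and at most 3 list members each way in a comparison. A list gene with several probe sets was read from the brightest. No promoter or protein sequences were used here. Alternatives were a block for the replicate number, a separate fit for each organ, quantile normalization, median centring, trend and robust moderation, the dimmest 5687 probe sets left out, and each array left out.

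The pairing was checked by correlating the deviations of same-numbered arrays from their group means across probe sets. All 6 pairs of a root and a shoot group of the same line and treatment correlated above 0.1 (0.186 to 0.453), so root and shoot were also fitted as pairs for organ comparisons, an alternative added after the data were seen. Over all 66 pairs of groups 55 exceeded 0.1 (median 0.302, lowest -0.0338). Same-numbered arrays thus deviated together in most groups, but not in every pair, which was the criterion, so the fit reported has no block for the number and the blocked fit is an alternative.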

Additional observations from a re-analysis of the deposited data

Results flagged for a closer look

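The hypoxia change of 3 genes differed between organs by the test of the difference itself, averaged over genotypes. The excess in roots was 1.46 (log2) for AT5G10040, 1.41 for AT4G24110 and 0.73 for AT3G27220. No group held enough arrays for a single outlying array to be judged.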

How the results depend on the processing

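The calls of AT5G10040 and AT4G24110 for the averaged organ difference of the hypoxia change held in all 25 fits with 1 array left out. No genotype comparison of the 4 genes was called under any alternative. Of 2224 recomputed values of these genes 81 turned sign, in 34 of the 72 pairs of a gene and a comparison, and 0 of those values were called in either fit, so the sign of many uncalled differences is not stable. With the replicate number as a block over all groups, the probe sets called for hypoxia rose from 1479 to 2579 in WT roots, 313 to 617 in WT shoots, 2278 to 3686 in mpk6 roots, 298 to 620 in mpk6 shoots and 403 to 888 in MPK6ox shoots. The labels do not say what a number marks. Under that block the WT organ difference of AT5G10040 passed (adjusted p = 0.0258). Fitted by organ, the count in WT roots was 852. With 1 array left out, it ran from 612 to 1632 in WT roots, 127 to 326 in WT shoots, 1046 to 3277 in mpk6 roots, 146 to 325 in mpk6 shoots, 1117 to 2321 in MPK6ox roots (2221 with all arrays) and 156 to 432 in MPK6ox shoots. With root and shoot arrays paired as a block, calls for the organ difference of the hypoxia change, over WT alone and the average, rose from 3 to 5 of 8. The averaged MPK6ox difference from WT ran from -0.095 to 0.015 for AT4G24110, -0.094 to 0.059 for AT3G27220 and -0.16 to 0.031 for AT3G23170 with 1 array left out. The normoxic organ difference of AT3G23170 was -0.021 with arrays centred and -0.081 to 0.17 with 1 array left out. The cause of these shifts was not tested. Leaving 1 array out of a pair assumes that the lone sample varies like the other groups. Separate organ fits cannot compare organs. With 2 or 3 arrays a group, small differences between lines could not be resolved.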
